A study of Mus musculus with 333 samples.

Results

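Among neurons of the mouse visual cortex at embryonic day 18.5 (E18.5), 8 of 65 cells met a rule built on genes of GABAergic interneurons. They were chosen by reads alone: a cell was taken when at least 3 of the 6 genes Gad1, Gad2, Dlx1, Dlx2, Dlx5 and Dlx6 each had 10 or more reads. The 65 cells are those labelled Neurons among 71 cells from this region and age, in a series of 333 cells from visual cortex, hippocampus and thalamus at E18.5, postnatal day 12 (P12) and adult age. All animals were wild type, with 5 mice per stage. Cells were enriched by flow sorting with a gate that is not given in the sources used here, captured on a Fluidigm C1 chip, and their polyA RNA was amplified with the SMARTer kit. The labels do not say which animal a cell came from, so the 8 interneuron-gene cells are 1 sample and the 57 other neurons are 1 sample. The comparison has no replicates and no test.

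Cortical interneurons are inhibitory neurons that are born outside the cortex, in the ganglionic eminences of the ventral forebrain, and migrate tangentially into it. Dlx homeobox factors act early in these cells and GAD enzymes make GABA, while the excitatory neurons around them are born within the cortex and use Neurod factors and Tbr1. Cells of the medial eminence are known for Lhx6, and those of the caudal eminence for Sp8, Nr2f2, Prox1 and Htr3a. These lineages supply somatostatin and parvalbumin cells on the one hand and Htr3a-bearing cells on the other.

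Levels are given in CPM (counts of a gene scaled to a common total of reads counted to genes), summed over the cells of a group unless a cell is named. A log2 ratio compares the 8 cells with the 57 after 1 CPM is added to each, a gene is measured at 10 CPM or more in either group, and higher or lower means 2-fold or more. Brackets after a CPM level or a percentage give exact 95% Poisson or Clopper-Pearson limits, which cover counting error only. A range given for a log2 ratio or a median log2 ratio is its span when each cell was left out. In sums over cells, fewer cells with a transcript and less transcript per cell cannot be told apart, so the number of cells with 10 or more reads stands beside many values. Reads quoted for 1 group only are those of the 8 cells. Cells are named by the number in their titles, and are 2, 6, 8, 19, 25, 35, 41 and 52 for the interneuron-gene cells.

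The 8 cells made up 12.3% (5.47% to 22.8%) of the 65. They held 549351 to 1849408 reads with a median of 1547254, against 484310 to 2353760 and a median of 1377531 in the other cells. After every cell was thinned to 484310 reads, they showed 2315 to 3025 genes with a median of 2772, against 1614 to 6438 and a median of 3183. Of the other cells, 8 libraries stood apart with more than 4500 genes at equal depth (4942 to 6438, against at most 4483 in the rest), and no interneuron-gene cell was among them. Reads of Xist, which female cells express, and of Y-linked genes were both at 10 or more in 2 of the 8 cells (6 and 19), in 14 of the 57 others (24.6%), 7 of them in those 8 libraries, and in 4 of 203 non-neuronal cells (1.97%). Without these 16 cells the log2 ratios defined next were 3.48 for Sp8, 2.71 for Htr3a, 1.28 for Adarb2, 2.85 for Nrxn3 and -2.16 for Gria2. The median of interneuron factors was then 3.14, that of caudal genes 0.82, that of deep-layer genes -1.20 and that of GABA receptor subunits -3.47. The part of mixed material in the results was not tested.

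**Figure D1:**
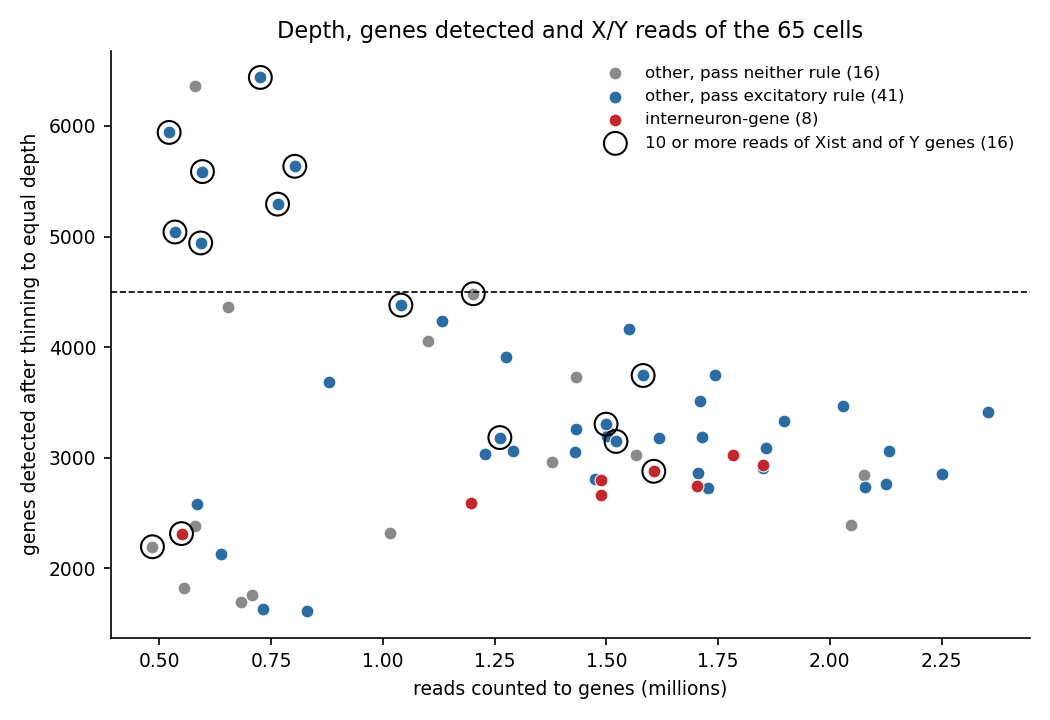
Reads counted to genes (horizontal) and genes detected after thinning to equal depth (vertical) for the 65 neurons, coloured by class. Circles mark the 16 cells with 10 or more reads of Xist and of Y-linked genes, and the 8 libraries above the dashed line at 4500 genes are all other cells.

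The rule genes describe the choice and support nothing else. Gad2, which encodes the GABA-synthesising enzyme GAD65, was the only rule gene with 10 or more reads in all 8 cells (43 to 2198 reads). Gad1, which encodes GAD67, reached that count in 7 cells, Dlx1 and Dlx5 in 6 each, Dlx2 in 2 and Dlx6 in 1. Summed levels were 345 against 18.9 CPM for Gad1, 666 against 50.5 CPM for Gad2, 348 against 26.6 CPM for Dlx1 and 291 against 0.0678 CPM for Dlx5. Gad1, Gad2 and Dlx1 were therefore present in some other cells, while Dlx5 reached 10 reads in none of them.

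Near the threshold, cells 19, 25, 35 and 41 passed with 3 rule genes, whose lowest counts were 49, 100, 43 and 924 reads. Among the other cells 9 had 2 rule genes at 10 reads, 12 had 1 and 36 had none. In cell 5, with 1416 reads of Gad2 and 102 of Dlx1, the next rule gene was Gad1 at 5 reads, and in cell 66 it was Dlx6 at 7 reads. Cells 18 and 43 had no read of any further rule gene, with 257 reads of Gad1 and 816 of Gad2 in the former and 751 of Gad2 and 559 of Dlx1 in the latter.

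**Figure D2:**
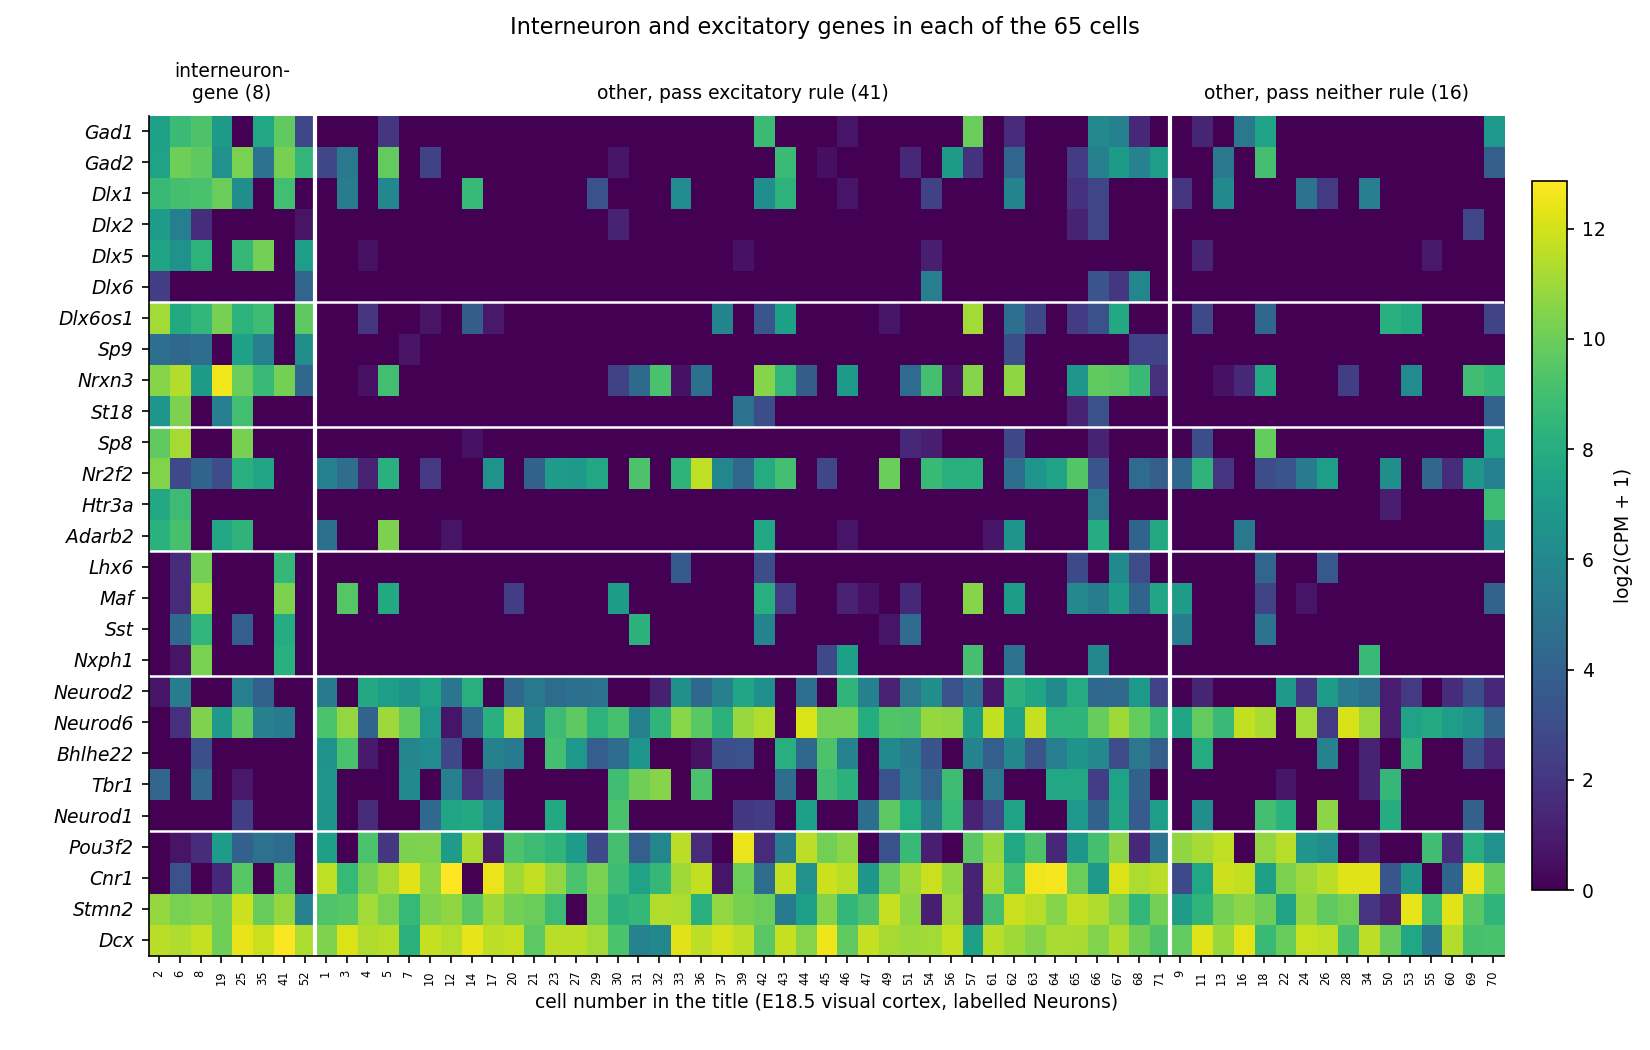
Level of each gene (rows, log2 of CPM with 1 added) in each of the 65 cells (columns, by cell number), in 3 classes. Blocks from the top hold the 6 rule genes, Dlx6os1 with Sp9, Nrxn3 and St18, genes linked to the caudal lineage, genes linked to the medial lineage, excitatory genes, and other neuronal genes; Lhx6 and Sp8 are in different interneuron-gene cells.

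Outside the rule, transcription factors of interneurons were mostly higher in the 8 cells. Of 12 measured members of this list, which leaves out the rule genes and Dlx6os1, 9 were higher and 1 was lower, with a median log2 ratio of 2.96. Over all 8587 measured genes 20.7% were higher and 46.5% lower, with a median of -0.73. These are the background shares for every list count below. The median lay between 2.30 and 3.61 whichever cell was left out, the lowest without cell 2. At equal depth, 2 of the 12 had a read in a share of cells 30 points or more higher in the 8 cells, and 0 in a share as much lower. Over all measured genes these were 1.6% and 6.75%. Within a cell, 1 to 7 of the 13 listed genes had 10 or more reads in the 8 cells, with a median of 5, against 0 to 6 with a median of 2 in the others, so the ranges overlap. Summed over the list, the median was 2406 CPM in the 8 cells and 575 CPM in the others. Cells 35 and 52 were below the latter, at 235 and 79.9 CPM, and cell 57 of the others reached 3800 CPM.

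Sp9, a zinc finger factor of ganglionic eminence neurons, reached 10 reads in no other neuron. Its reads in the 8 cells, in the order given above, were 37, 30, 42, 0, 198, 71, 0 and 136. Thus 6 of 8 cells had 10 or more, against 0 of 57 other cells, where the highest level was 7.67 CPM, and 3 of 203 non-neuronal cells. The summed level was 44.1 (40.3 to 48.04) against 0.163 (0.0840 to 0.284) CPM, a log2 ratio of 5.28 that stayed between 4.75 and 5.52 without any 1 cell. Exons of Sp9 overlap those of Cir1 on the opposite strand, and whether reads were assigned by strand is not given.

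Nrxn3 encodes neurexin 3, a presynaptic adhesion protein. It had 2217, 4251, 228, 3413, 1165, 608, 2166 and 32 reads, so every one of the 8 cells passed 10 reads, against 20 of 57 others. The level was 1207 (1187 to 1227) against 114 (112 to 117) CPM, with a log2 ratio of 3.39 and a range of 3.06 to 3.61. Cells overlapped, since the highest other cell had 1641 CPM and 6 of the 8 were below it.

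Dlx6os1 lies on chromosome 6 (6820189 to 6871592, minus strand, GRCm38, GENCODE M21) and spans Dlx6 (6863334 to 6868568, plus strand), next to Dlx5 (6877805 to 6882085, minus strand). It is a long noncoding RNA of the locus, so its values are not independent of the rule. It had 0 reads in cell 41 and 362 to 3282 in the other interneuron-gene cells, a summed 637 against 37.5 CPM (log2 ratio 4.05). Of the other cells' 2767 reads, 1603 were in cell 57, and without that cell the ratio was 5.24.

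Lhx6 and Sp8, listed here for the medial and the caudal lineage, were in different members. Lhx6 had 2076 reads in cell 8 and 692 in cell 41, 3 in cell 6 and 0 in the remaining 5. Sp8 had 1246 reads in cell 2, 3558 in cell 6 and 1446 in cell 25, and 0 in the remaining 5. No interneuron-gene cell had 10 or more reads of both, and 3 cells (19, 35 and 52) had 10 of neither. Among the 57 others, 5 had 10 or more reads of either gene, 1 of them of both.

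The Lhx6 cells shared further genes of the medial lineage. Maf, a factor that continues in medial eminence interneurons, had 4419 reads in cell 8 and 2342 in cell 41, and at most 3 in any other member. Sst, the neuropeptide somatostatin, had 634 and 450, and Nxph1, a secreted neurexin ligand, had 2193 and 527. Sst was also at 32 reads in cell 6 and 16 in cell 25. Over the whole medial list 4 of 6 measured genes were higher and none lower (median log2 ratio 2.94, 1.60 without cell 8), while Nkx2-1, Lhx8, Elfn1, Tac1 and Pvalb had no read in the 8 cells. Maf had 10 or more reads in 12 of 57 other neurons and in 58 of 203 non-neuronal cells.

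The Sp8 cells differed among themselves. Cells 2 and 6 had 320 and 720 reads of Htr3a, an ion channel gated by serotonin that marks caudal interneurons, and cell 25 had 0. Adarb2, an RNA-binding relative of the RNA-editing enzymes, had 447, 895 and 390 reads in cells 2, 6 and 25, and 116 in cell 19. Prox1 had 5147 reads in cell 2 and 0 in the other members. Pbx3 had 1411 reads in cell 6 and 503 in cell 25. In cells 2, 6 and 25 the caudal list summed to 6260, 3276 and 2685 CPM. In the other cells its median was 2179 CPM and its highest sum 7562 CPM. Sp8, by which cells 2, 6 and 25 were singled out, is on this list and gave 837, 2215 and 1207 CPM. Their sums are therefore partly set by the choice. Cnr1, a member of the list taken up below, had a median of 1683 CPM in the other cells. The list for the lateral eminence and its neurons summed to 417, 2667 and 3832 CPM in cells 2, 6 and 25. In the other cells its median was 574 CPM and its highest sum 6547 CPM. Which lineage the Sp8 cells belong to was not tested. Nr2f2 had 10 or more reads in 5 of 8 and 36 of 57 cells. Its log2 ratio was 0.25, but -1.58 without cell 2 and 1.08 without cell 36, one of the others.

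The caudal list as a whole was not uniform. Of 8 measured genes 4 were higher and 3 lower (median log2 ratio 1.16), beside background shares of 20.7% and 46.5%. Without cell 2 the median was -1.85. Among those lower was Cnr1, the cannabinoid receptor CB1, which is listed here for interneurons and is also made by young excitatory neurons. It had 870 reads in cell 25, 1269 in cell 41 and 0 to 13 in the other members. Its summed level was 185 (177 to 193) against 2242 (2231 to 2253) CPM (log2 ratio -3.60, range -4.62 to -3.36), and 3 of 8 cells passed 10 reads against 52 of 57.

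Cells 35 and 52, which had no read of Lhx6 or Sp8, held nearly all of the members' reads of Foxp1, a forkhead factor that striatal and cortical projection neurons also use. They were singled out after their values were seen. Foxp1 was at 7749 CPM in cell 35 and 7066 CPM in cell 52, against 0 to 34.9 CPM in the other 6 members and at most 836 CPM in the other 57 cells. Bcl11b (Ctip2), a factor of deep-layer and striatal neurons, had 1016 and 2205 reads in these cells and at most 23 in the other members, though 23 of 57 other cells also passed 10 reads. Both cells had Dlx5 (1706 and 244 reads), Sp9 and Gad2. Which lineage cells 35 and 52 belong to was not tested. Of the list for the lateral eminence and its striatal and olfactory neurons, Isl1, Foxp2, Ebf1, Gsx2, Penk and Ppp1r1b had no read in any of the 8 cells, and 2 of 4 measured genes were higher (median log2 ratio 1.73, -0.75 without cell 6).

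Several factors rested on 1 cell. The ratio of Prox1 was 3.55, and -5.24 without cell 2. Zswim5 had 647 reads in cell 19 and 0 in the other members, with a ratio of 2.36, and -3.46 without it.

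Excitatory identity genes were lower in the 8 cells. A rule of the same form was set for excitatory neurons, with 10 or more reads in at least 3 of 6 genes, Neurod2, Neurod6, Bhlhe22 and Tbr1 among them. It was met by 41 of the 57 other cells (71.9%, 58.5% to 83.0%), by cell 8 among the 8, and by 0 of 203 non-neuronal cells, while 16 cells met neither rule. The interneuron rule was met by 1 of the 203. Every one of the 5 measured genes of the excitatory rule was lower, where the background share lower was 46.5%. Log2 ratios included -1.74 for Neurod6, -2.29 for Neurod2, -4.14 for Tbr1 and -4.89 for Bhlhe22.

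These genes were not at 0 in all interneuron-gene cells. Neurod6, a factor of postmitotic excitatory neurons, had 2351 reads in cell 8, 995 in cell 25, 66 to 74 in cells 19, 35 and 41 and at most 4 in cells 2, 6 and 52. Bhlhe22 was at 14 reads in cell 8 only, and Tbr1 at 26 in cell 2 and 32 in cell 8. Summed over the 6 genes, the 8 cells ran from 40.6 to 1693 CPM with a median of 471, and the 57 others from 91.6 to 5278 CPM with a median of 1557. Cells 6, 35, 41 and 52, at 40.6 to 62.5 CPM, were below every other cell, and cells 2, 8, 19 and 25, at 879 to 1693 CPM, were within the others' range.

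**Figure D3:**
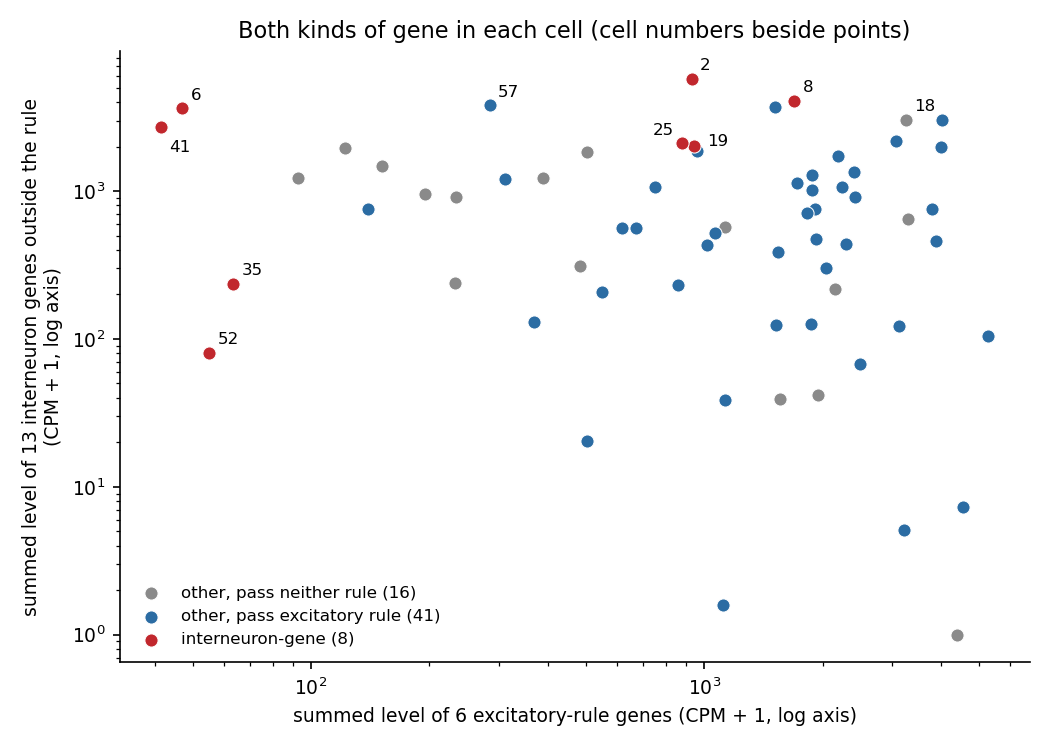
Summed level of the 6 excitatory-rule genes (horizontal) and of 13 interneuron genes outside the interneuron rule (vertical) in each of the 65 cells, both in CPM with 1 added on log axes. Cells 6, 35, 41 and 52 lie left of every other cell, while cells 2, 8, 19 and 25 hold both kinds of gene, as do other cells such as 18 and 57.

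Further excitatory genes, outside both rules, had 5 of 8 measured members lower and 1 higher (median log2 ratio -1.45, range -2.21 to -1.15), and the background share lower was 46.5%. Neurod1, a factor of newborn excitatory neurons, had 5 reads, all in cell 25, so that its level was 0.429 against 121 CPM, and 24 of 57 other cells passed 10 reads. Enc1, an actin-binding protein of developing cortical neurons, was at 2 reads in cell 6 and at 1395 to 7744 in the other members (2949 against 8864 CPM, log2 ratio -1.59). Tiam2 was the member above 2-fold, with 4737 of 6027 reads in cell 6 and a ratio of -0.36 without it.

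Layer genes were split. Of 10 measured upper-layer genes 4 were lower and none higher (median -0.59), and of 9 deep-layer genes 4 were lower and 2 higher (median -0.71). Background shares were 46.5% lower and 20.7% higher, and the median over all measured genes was -0.73. The deep-layer counts, the upper-layer count of lower genes and both medians therefore lie near the background. Single cells moved the medians of both lists, to -1.50 for upper-layer genes without cell 41 and to -2.25 for deep-layer genes without cell 35. Pou3f2 (Brn2), which acts in upper-layer neurons, had 0 to 74 reads in the 8 cells, and its level was 15.4 (13.3 to 17.8) against 902 (896 to 909) CPM. Its log2 ratio was -5.78, between -6.42 and -5.57 without any 1 cell, and 4 of 8 cells had 10 or more reads against 38 of 57. When 2 rule genes sufficed, which made 17 interneuron-gene cells, the ratio was -0.72. Mef2c, a factor of both upper layers and interneurons, had 10 or more reads in all 8 cells and a level of 1365 against 1170 CPM (log2 ratio 0.22). Cell 41 held 10217 of its 15927 reads, and without it the ratio was -1.01.

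General neuronal genes were mostly within 2-fold. Of 15 measured members, 2 were higher and 3 lower, with a median log2 ratio of 0.14, beside background shares of 20.7% and 46.5%. Dcx, a microtubule protein of migrating neurons, had 582 to 12905 reads in the 8 cells and 10 or more in all 65 (3807 against 2424 CPM, log2 ratio 0.65). Stmn2, a growth cone protein, had 86 to 4540 reads and a ratio of 0.30. Ina, the intermediate filament internexin, was higher (780 against 241 CPM, log2 ratio 1.69), with 1909 to 2598 reads in cells 6, 25, 35 and 52 and 0 to 84 in cells 2, 8, 19 and 41.

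**Figure D4:**
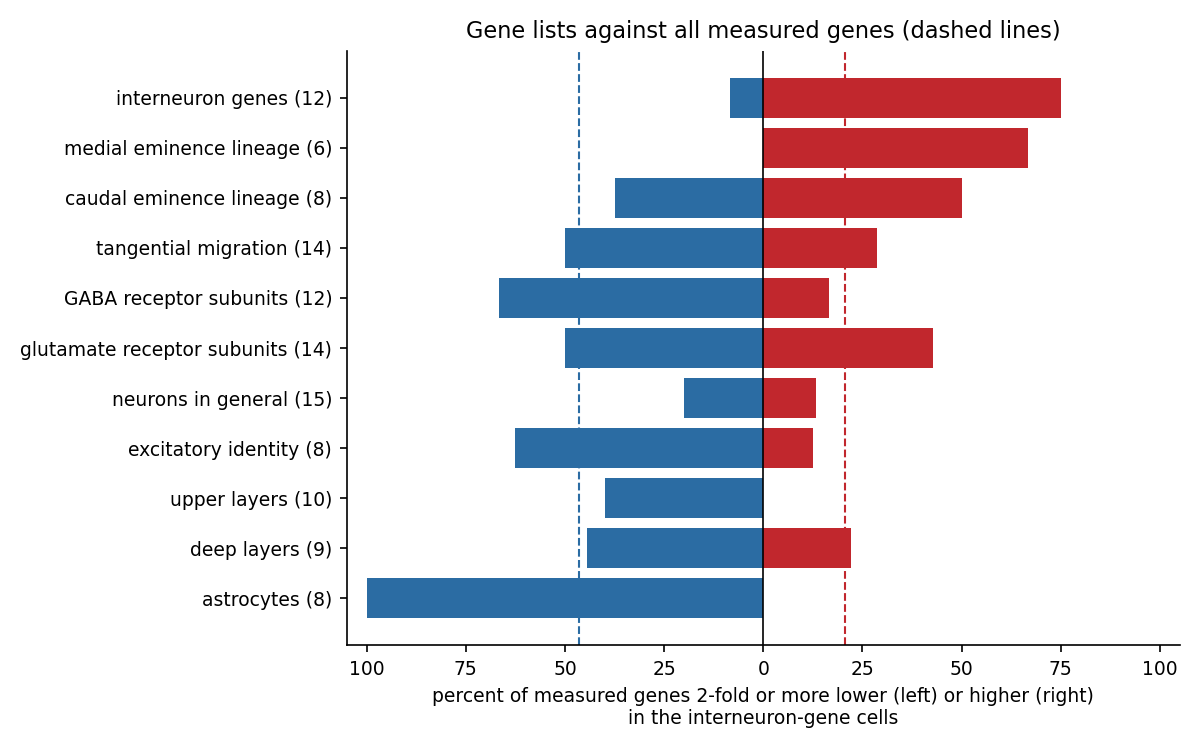
Percent of the measured genes of each list (number in brackets) that were 2-fold or more lower (blue, left) or higher (red, right) in the interneuron-gene cells. Dashed lines mark all 8587 measured genes, 46.5% lower and 20.7% higher. Of 12 interneuron genes 9 are higher. All 8 measured astrocyte genes, which reached the minimum through the other cells, are lower.

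Genes that handle GABA after its synthesis gave 2 higher and 3 lower of 5 measured, beside background shares of 20.7% and 46.5%. Slc32a1, the transporter that loads GABA into vesicles, had 9 reads in cell 2 and 0 in the other 7 cells (0.771 against 0.352 CPM). Abat, which breaks GABA down, had 6139 of 6192 reads in cell 52, with a ratio of 6.85, and 0.45 without that cell. Slc12a2, the chloride importer NKCC1 that makes GABA depolarising in immature neurons, had 16 reads, all in cell 52, against 114 CPM and 16 of 57 cells in the others (log2 ratio -5.60).

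GABA receptor subunits were lower for 8 and higher for 2 of 12 measured, where the background share lower was 46.5%. Their median log2 ratio was -2.31, and -3.56 to -1.79 when each cell was left out. It was -0.53 when 2 rule genes sufficed and -4.28 when 4 were needed. Gabra2, the alpha2 subunit common in immature neurons, had 0 reads in all 8 cells, against 134 (131 to 137) CPM in the others, where 26 of 57 cells had 10 or more. Against a floor of 3 reads over the 8 cells this was at least 521-fold lower, a limit that covers read counting only. The log2 ratio of Gabra2 was -7.08, but -3.85 with 10 CPM added and -2.61 when 2 rule genes sufficed. Gabra3 was higher with 1199 reads in cell 41 and 290 in cell 35 (128 against 2.90 CPM), a log2 ratio of 5.04. With 10 CPM added, the list's median was -1.08, and against the 41 excitatory-rule cells alone it was -1.45.

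Glutamate receptor subunits lay in both directions, 6 higher and 7 lower of 14 measured, beside background shares of 20.7% and 46.5%. Their median log2 ratio of -0.86 had no firm sign, since it was 0.14 without the 8 libraries with more than 4500 genes, 0.87 when 2 rule genes sufficed and 1.88 at a minimum of 50 CPM. Gria1, the GluA1 AMPA subunit, had 0, 2017, 3712, 516, 0, 357, 4987 and 241 reads. It was higher at 1014 (996 to 1032) against 237 (234 to 241) CPM. Its log2 ratio was 2.09, and 1.55 to 2.34 when each cell was left out. Gria2, the GluA2 subunit that lowers the calcium permeability of AMPA receptors, had 535, 879, 1136, 1173, 193, 148, 382 and 689 reads, present in all 8 cells. It was lower at 440 (428 to 452) against 1515 (1506 to 1524) CPM. Its log2 ratio was -1.78, and -2.08 to -1.63 when each cell was left out. Cells overlapped for both genes, since the other cells ran from 0 to 2269 CPM for Gria1 and from 0 to 5803 CPM for Gria2. Grm5, a metabotropic receptor, was higher (412 against 83.4 CPM) with 816 to 2017 reads in cells 2, 8, 41 and 52. Grik1 and Grin3a rested on cell 41 and cell 19 alone.

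**Figure D5:**
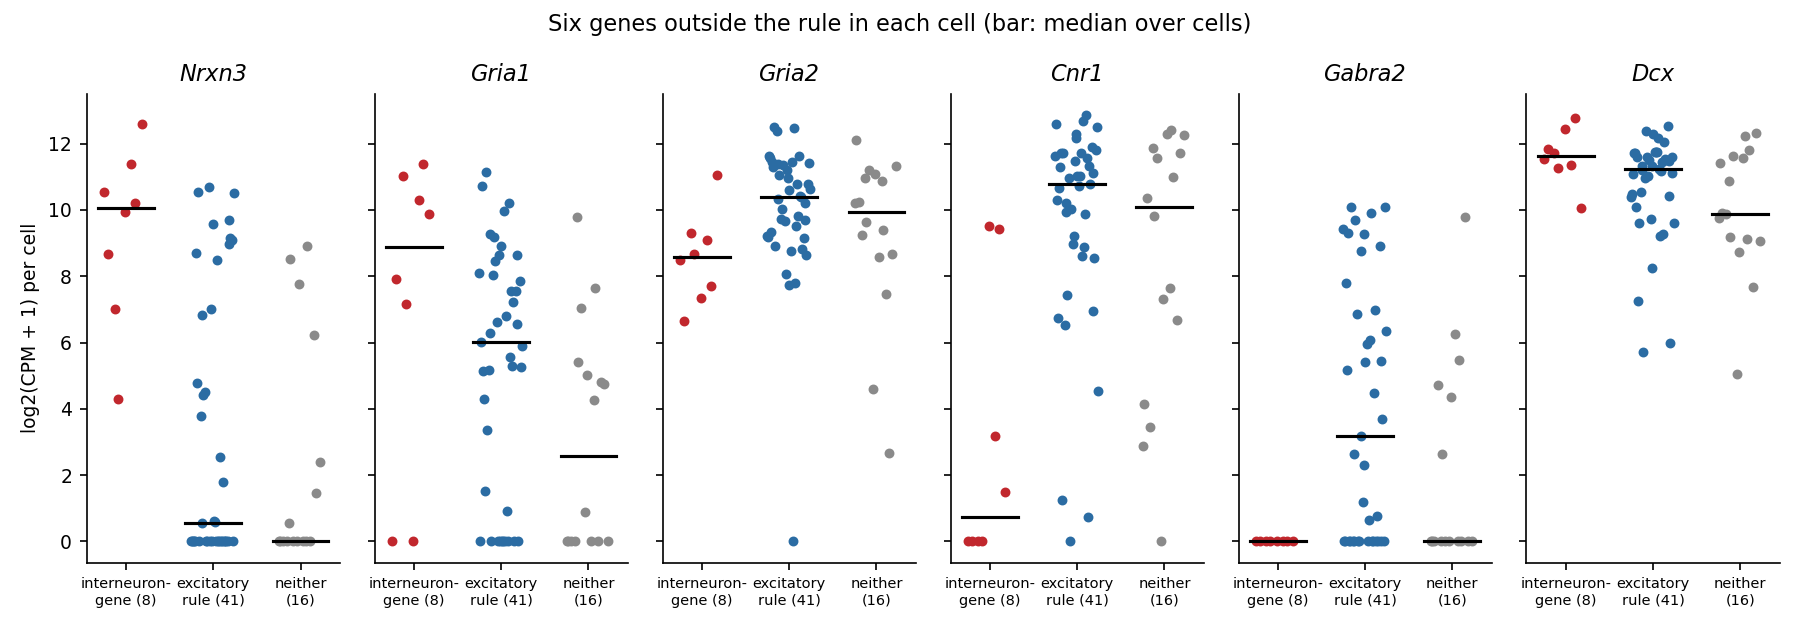
Level of 6 genes (log2 of CPM with 1 added) in each cell, by class, with a bar at the median over cells. Nrxn3 is above 0 in all 8 interneuron-gene cells, Gabra2 is at 0 in all 8, and Gria1 and Gria2 differ in opposite directions.

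Genes of tangential migration had no common direction, with 4 higher and 7 lower of 14 measured (median log2 ratio -1.09, and -0.30 when each cell counts equally). Background shares were 20.7% higher and 46.5% lower, so these counts lie near the background. Erbb4, the neuregulin receptor of migrating interneurons, had 1104 reads in cell 2, 286 in cell 6, 1507 in cell 8 and at most 65 in the others (256 against 85.7 CPM, log2 ratio 1.57, and 0.80 without cell 8). Cxcr4, the receptor for the chemokine Cxcl12, had 257 of 258 reads in cell 41. Plxna4, a semaphorin co-receptor, was at 39 reads in cell 2 and 1 in cell 19 (3.43 against 314 CPM, log2 ratio -6.15). The semaphorin receptors Nrp1 and Nrp2 were lower, Nrp1 with 46 to 889 reads in all 8 cells (log2 ratio -1.38) and Nrp2 with 2 reads in all (0.171 against 78.3 CPM).

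The ranking by size, which asks for 50 CPM, a read in at least 50% of the cells of the higher group and a difference of 30 points in that share, had 39 candidates higher and 176 lower. Of all measured genes 1.6% had a share 30 points higher in the 8 cells and 6.75% a share 30 points lower. St18, a zinc finger factor, led those higher with 2096 reads in cell 6, 593 in cell 25, 162 in cell 2 and 24 in cell 19 (246 against 0.935 CPM, log2 ratio 6.998), and 1 of 57 other cells had 10 or more. It was thus in all 3 Sp8 cells and in neither Lhx6 cell. Sst, Nrxn3, Dlx6os1, Dact1, a modulator of Wnt signalling, and Nr4a1, an immediate early receptor, were among the 15 highest as well. The rest were Ints2, Mettl6, Wdr73, Nup188, Prkag1, Neb, Ccdc30, Zc3h12c and Polr1b. Like St18, Nrxn3 and Dact1, these are in none of the gene lists used here, and Nr4a1 is listed as an immediate early gene. Most of the ranking is therefore not made of listed interneuron genes. Dact1 had 881 reads in cell 8 and 442 in cell 35, and Nr4a1 had 1086 and 730 in the same cells.

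Among the 15 lowest, Opcml and Itpr1 had 0 reads in the 8 cells. Opcml, an adhesion molecule of the IgLON family, was at 257 CPM in the others with 38 of 57 cells at 10 or more reads, and Itpr1, the intracellular calcium channel, at 217 CPM with 33 of 57. Chst2, a sulfotransferase, had 1 read against 361 CPM and 28 of 57 cells. Clstn2, the synaptic protein calsyntenin 2, had 2 reads against 222 CPM and 30 of 57 cells. Of the 3991 lower genes 1397 had no read in the 8 cells and of the 1779 higher genes 32 had none in the 57, so the unequal number of cells and the direction of a difference cannot be told apart in these counts.

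Astrocyte markers were lower in the 8 cells. All 8 measured astrocyte genes were lower (median log2 ratio -4.22, and -1.58 with 10 CPM added), and the background share lower was 46.5%. The summed level of the list ran from 0 to 107 CPM in the 8 cells with a median of 0.616, against 0 to 9720 CPM with a median of 35.4 in the 57. At these levels the genes were measured through the 57 cells, so the count of lower genes was largely set by the 10 CPM minimum. Aldoc, Agt and Aldh1l1 had no read in the 8 cells. The 8 libraries with more than 4500 genes held 26.7% of the other cells' astrocyte reads and 6.93% of their reads in all, and without them the median was -4.48. Summed levels of the microglial and the mural lists stayed at or below 1.25 CPM in every interneuron-gene cell. The endothelial list reached 348 CPM in cell 2. The oligodendrocyte list, with 2 of 3 measured genes higher and 1 lower, reached 469 CPM in cell 6 and 217 CPM in cell 41. Their part in the results was not tested.

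Cells outside the rule also carried interneuron genes, and were singled out after their values were seen. Cell 18, with 2 rule genes, had 1374 reads of Sp8, 2120 of Erbb4 and 26 of Lhx6. Cell 57, with Gad1 alone at 10 reads (704), had 1076 of Maf, 395 of Nxph1 and 1204 of Sox6, and met the excitatory rule with 4 genes. Cell 5 had 2090 reads of Adarb2. Cell 18 held 1374 of the 1488 Sp8 reads of the other cells, and without it the log2 ratio of Sp8 was 7.70 in place of 4.66.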

How the data were processed

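Each library came from the polyA RNA of 1 wild-type mouse brain cell and carries no molecular identifiers. The values the authors deposited are raw counts of reads for each gene in each cell. STAR, HTSeq 0.6.0 and the build mm10 are named per the submitters' processing notes. The strand setting, the gene annotation and the sort gate are not stated there. The table held 22074 genes, of which 21274 matched current mouse symbols, 744 matched older symbols and 56 matched none; it had no mitochondrial gene. Tubb3 and Drd1 were not analysed here, and results on some listed genes are not reported here. The members, the lists and the comparison were chosen with earlier results of these data known.

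Reads were summed per group (11666588 in the 8 cells, 73781855 in the 57) and scaled to CPM with Python 3.11.15, pandas 2.3.3 and numpy 2.4.6. The floor for a group with no read was 3 reads over that group. For the ranking, cells were thinned to a depth of 484310 reads. The text names members of the lists and, in each direction, up to 15 genes ranked by log2 ratio. Ranked genes needed 50 CPM, a read in 50% of cells of the higher group, a share 30 points above the other group, and 2-fold or more without any 1 cell. Rule genes, ribosomal protein genes and predicted genes were not ranked. Steps were tested on simulated counts drawn from the summed profile of the other cells, with known fold changes put in. Those counts do not carry the spread between cells seen here. Scaling factors came from edgeR 4.0.16 in R 4.3.3 and served as alternatives only. No doublet caller was run. The highest correlation between any pair of the 65 cells was 0.617 (across genes, which are not independent replicates). Exons of Nr2f2, Sp9, Ina, Tiam2, Mettl6, Ppp1r1b and Xist overlap those of opposite-strand genes in the table. Exons of Neurod1 overlap those of Cerkl on its own strand. Nrp1 overlaps Mir1903. Reads of these pairs may be shared or lost. Gene positions are from GENCODE M21 (GRCm38).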

Additional observations from a re-analysis of the deposited data

Results flagged for a closer look

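Cells outside the comparison also met the interneuron rule. Among the 53 cells that carry no cell type, 5 met it, and 1 cell labelled Astrocyte did, of 203 non-neuronal cells. Of these 6 cells 5 had 10 or more reads of Sp8 (260 to 4969) and none had a read of Lhx6 or Slc32a1. Nrxn3 was at 283 to 1818 reads in all 6, and Dlx6os1 at 10 or more in 5. The cell labelled Astrocyte, from P12 visual cortex, had 1417 reads of Sp8 and 3797 of Dlx6os1.

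Among the 8 interneuron-gene cells, cell 19 lay far from the others in 4 of 15 per-cell measures tried, where its gap to the next cell was above Dixon's 95% limit for 8 samples. That limit is for independent, normally distributed values. These are cells of 1 sample, with medians of 0 CPM for cell division genes and 0.616 CPM for astrocyte genes. The limit therefore serves as a cut-off and not as a test. Its summed levels were 17036 CPM for general neuronal genes, 4582 CPM for radial glial genes, 107 CPM for astrocyte genes and 397 CPM for cell division genes. It was also the library with the fewest reads among the 8 (549351) and had 10 reads of Xist and 45 of Y-linked genes. How often chance passes this limit with such values is not known, and the 4 measures come from 1 library.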

How the results depend on the processing

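No paired analysis was possible because the numbers in the titles only name cells. No alternative has a test, so directions and sizes are compared. The number of interneuron-gene cells was 8; it was 15 at 1 read and 17 with 2 of 6 genes, and 4 to 8 otherwise. Cells that met both rules, 1 as given, were 10 at 1 read, 14 with 2 of 6 genes for either rule, and 0 at 50 reads or after thinning. Genes higher numbered 1714 to 1796 and genes lower 3938 to 4192 when each cell was left out; lower genes were 1664 at a minimum of 50 CPM and 6090 without a minimum. TMM and median-of-ratios scaling add 0.13 and 0.28 to every log2 ratio. The interneuron median of 2.96 (2.30 to 3.61 when each cell was left out) was 2.06 with 10 CPM added, 2.10 with 2 rule genes and 2.11 with 4, and 3.55 with Dlx6os1 in the list, the last added after the data were seen. The excitatory median of -1.45 (-2.21 to -1.15) was -0.28 with 2 rule genes and -3.20 with 4. The caudal median turned to -0.95 without a minimum, to -0.059 against excitatory-rule cells alone, and ran from -1.85 (without cell 2) to 2.04 when each cell was left out, and the lateral median to -0.27 without cells holding Xist and Y-linked reads and ran from -0.75 (without cell 6) to 2.23. The deep-layer median of -0.71 was 0.60 with 2 rule genes, -3.53 with 4 and 0.0064 at 50 CPM, and the upper-layer median of -0.59 was 0.29 with 2 rule genes. With 2 rule genes several genes lower by 2-fold no longer were, among them Pou3f2 (-0.72), Bhlhe22 (-0.56), Neurod6 (-0.29), Enc1 (-0.80), Plxna4 (-0.36), Itpr1 (-0.66), Cnr1 (-0.87) and Gria2 (-0.52). With 4 rule genes Zswim5 turned to -4.21, Gabra3 to -4.29 and Cxcr4 to -2.09. Without cells holding Xist and Y-linked reads Zswim5 was -3.36 and Tiam2 -0.80. When each cell was left out, Prox1 ran from -5.24 to 4.52, Zswim5 from -3.46 to 3.66, Cxcr4 from -0.61 to 4.10 and Tiam2 from -0.36 to 2.22. For the turned values the cause was not tested, beside the cells that the leave-outs name. Depth limits the rule itself, since 10 reads are a larger share of a shallow library.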
